A study of Bos taurus with 6 samples.

Results

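The genes examined were the MEIS, PBX and PKNOX homeobox factors with TGIF1, all of the TALE class, in bovine embryonic stem cells (bESCs) grown on 2 kinds of feeder layer. The members were MEIS1, MEIS2, MEIS3, PBX2, PBX3, PBX4, PKNOX1, PKNOX2 and TGIF1, chosen by symbol and Entrez gene identifier, and PBX2 was not analysed here. The 8 measured members were among 19163 genes in the count table, and all 8 had enough counts to be tested. The cells were F7, a single line derived from in vitro fertilized embryos, after 15 passages. MC-F7 grew on mouse embryonic fibroblasts stopped from dividing with mitomycin C, and MT-F7 grew on fibroblasts fixed with methanol. Both groups had the same medium, with fibroblast growth factor and the Wnt inhibitor IWR1. In both, the feeder cells were reduced by letting them settle on gelatin before the floating cells were collected. In the paper, a larger share of MT-F7 reads than of MC-F7 reads aligned to the bovine genome. The paper proposes that the fixed feeders left less contamination by feeder cells. The medium was changed daily for MC-F7 and every other day for MT-F7, so the feeder and the feeding schedule cannot be told apart. Each group had 3 RNA-seq libraries.

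TALE homeobox proteins carry a homeodomain with a short loop extension and are best known as partners of other transcription factors. MEIS and PKNOX proteins bind PBX proteins, which favours nuclear localization of the complex, and the pairs act on DNA together with HOX proteins or without them. MEIS1 and MEIS2 are known from the developing eye, brain, limb and blood, and their transcription responds to retinoic acid. TGIF1 belongs to the same class but acts as a repressor of SMAD and retinoid receptor targets.

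The libraries held 21958386 to 24933430 counted reads each. Levels are given as TMM-normalized CPM (counts per 1000000 counted reads), as mean ± SD over 3 libraries, and a positive log2 fold change is a higher level in MT-F7. Changes were tested with edgeR's quasi-likelihood test over 13001 genes at a Benjamini-Hochberg adjusted p of 0.05. Genes of the mitochondrial genome took the largest share of counts in replicate 3 of both groups, 28.3% in MC-F7 and 27.9% in MT-F7, against 16.3% to 23.2% in the other 4 libraries. Of the pluripotency markers of such cells, 5 were tested, 0 were higher and 4 lower in MT-F7 (0 higher also at an unadjusted p under 0.05 and by DESeq2), and none was at 0. Their summed level was 936 to 1562 CPM in MC-F7 and 577 to 626 CPM in MT-F7, with POU5F1, the core pluripotency factor, at 1196 ± 329.5 and 522 ± 35.6 CPM. The statistics section of the study speaks of technical replicates without naming the sequencing libraries, and no source says that a group's libraries were grown as separate cultures. The p values therefore measure only the spread between these libraries, which may be technical.

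Of the 8 measured members, MEIS1, MEIS2, MEIS3, PBX3 and PKNOX2 were higher in MT-F7, and PBX4, PKNOX1 and TGIF1 did not pass the test. These are 5 higher and 0 lower members, where 11.9% of all tested genes were higher and 11.3% lower at the same threshold. The same shares are the background for the counts given for the other gene lists. No member was lower at an unadjusted p under 0.05 (0 genes) or by DESeq2 (0 genes). The groups did not overlap in 6 members, with MT-F7 above in 5 and below in 1, where 40.0% of all tested genes did not overlap, 19.9% with MT-F7 above and 20.1% below. The median log2 fold change was 0.85 over the 8 members and -0.0026 over all tested genes. Fewer cells of a type and less RNA per cell cannot be told apart in such bulk libraries.

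**Figure D1:**
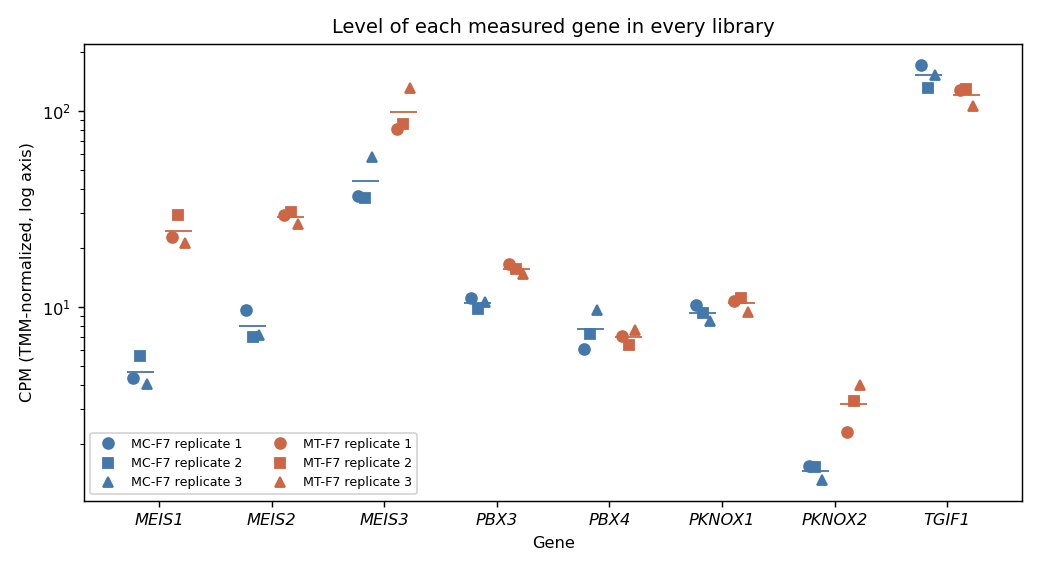
TMM-normalized CPM of the 8 measured genes in each of the 6 libraries, on a log axis, with 1 point per library and a line at each group mean. The MC-F7 and MT-F7 points of MEIS1, MEIS2, MEIS3, PBX3 and PKNOX2 do not overlap, with MT-F7 above, and those of PBX4 and PKNOX1 do.

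The MEIS genes encode partners that pair with PBX on DNA. MEIS1 (Entrez gene 613877), a regulator of blood stem cells and of eye development, was at 4.34, 5.60 and 4.07 CPM in MC-F7 and at 22.6, 29.5 and 21.3 CPM in MT-F7. Every MT-F7 library lay far above every MC-F7 library, and replicate 2 was the highest in both groups. The change was 5.23-fold (log2 fold change 2.39, standard error 0.206, 95% interval 1.94 to 2.83, adjusted p = 5.8e-06 by edgeR). Of the 13001 tested genes, 132 had a larger log2 fold change.

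MEIS2 (539573), which acts in the developing forebrain, retina and heart, was at 9.64, 7.05 and 7.20 CPM in MC-F7 and at 29.5, 30.4 and 26.6 CPM in MT-F7. The MT-F7 libraries were close to each other and all above the MC-F7 libraries. The change was 3.62-fold (log2 fold change 1.86, standard error 0.181, 95% interval 1.46 to 2.25, adjusted p = 1.4e-05 by edgeR), and 265 tested genes had a larger one. From the same RNA-seq data, the paper already reports MEIS1 and MEIS2, which it lists as markers of primed pluripotency, as significantly higher in MT-F7.

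MEIS3 (617311), known from hindbrain patterning, was at 36.9, 36.1 and 58.5 CPM in MC-F7 and at 80.5, 86.1 and 131 CPM in MT-F7. Replicate 3 was the highest library of both groups, and the lowest MT-F7 library was still above the highest MC-F7 library. MEIS3 rose 2.27-fold (log2 fold change 1.18, standard error 0.229, 95% interval 0.68 to 1.68, adjusted p = 0.0027 by edgeR). It passed without replicate 3 of both groups, with a log2 fold change of 1.21. With the deposited TPM rescaled to 1000000 per library it did not pass (adjusted p = 0.059 by limma).

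The PBX genes encode the DNA-binding partners shared by MEIS, PKNOX and HOX proteins. PBX3 (539222), which is active in the developing nervous system, was at 11.1, 9.78 and 10.7 CPM in MC-F7 and at 16.6, 15.6 and 14.8 CPM in MT-F7. The groups did not overlap, and the rise was 1.49-fold (log2 fold change 0.57, standard error 0.166, 95% interval 0.22 to 0.93, adjusted p = 0.024 by edgeR). PBX3 did not pass without MC-F7 replicate 2 (adjusted p = 0.12), MT-F7 replicate 1 (adjusted p = 0.10) or MT-F7 replicate 2 (adjusted p = 0.069). In the RefSeq gene table its span overlaps the protein-coding gene LOC132346531, which is not in the count table. Reads shared by PBX3 and that gene could not be separated.

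PBX4 (519770), the PBX gene known mainly from the testis, was at 6.10, 7.25 and 9.68 CPM in MC-F7 and at 7.09, 6.37 and 7.64 CPM in MT-F7. The groups overlapped, and the MC-F7 libraries spread more widely than the MT-F7 libraries. Its log2 fold change was -0.13 (95% interval -0.60 to 0.35, adjusted p = 0.72 by edgeR), and the sign turned without MC-F7 replicate 3 (0.067). The ratio of PBX3 to PBX4 in deposited TPM (a level corrected for transcript length), taken within each library, was 1.63, 1.21 and 0.985 in MC-F7 against 2.09, 2.20 and 1.73 in MT-F7. The ratio was thus higher in every MT-F7 library than in any MC-F7 library (two-sided exact permutation p = 0.1, the smallest p that 3 libraries against 3 can give).

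PKNOX proteins, also called PREP, compete with MEIS for PBX. PKNOX1 (533382), the broadly expressed member, was at 10.3, 9.33 and 8.51 CPM in MC-F7 and at 10.8, 11.1 and 9.43 CPM in MT-F7. The groups overlapped, with a log2 fold change of 0.16 (95% interval -0.23 to 0.55, adjusted p = 0.58 by edgeR). The upper end of that interval lay below the lower ends of the intervals of MEIS1, MEIS2 and MEIS3.

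PKNOX2 (617454), the more tissue-restricted member, had the fewest counts, 35, 37 and 28 in MC-F7 against 58, 86 and 94 in MT-F7, or 1.55, 1.53 and 1.31 CPM and 2.31, 3.32 and 3.99 CPM. The groups did not overlap, and the rise was 2.18-fold (log2 fold change 1.13, standard error 0.310, 95% interval 0.45 to 1.80, adjusted p = 0.019 by edgeR). PKNOX2 did not pass without MC-F7 replicate 2 (adjusted p = 0.060), MT-F7 replicate 2 (0.058), MT-F7 replicate 3 (0.067) or replicate 3 of both groups (0.081). With limma on the deposited TPM its adjusted p was 0.062 to 0.074. In the RefSeq gene table its span overlaps the microRNA gene MIR2285R, and reads shared by both could not be separated. The span of PBX4 likewise overlaps a small nuclear RNA gene, LOC112447655, and that of PKNOX1 a long noncoding RNA gene, LOC132345932. Neither of these RNA genes is in the count table. Within each library, the TPM of PKNOX2 over that of PKNOX1 was 0.132, 0.144 and 0.134 in MC-F7 against 0.188, 0.261 and 0.370 in MT-F7, without overlap.

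TGIF1 (510050), the repressor among the members, was at 172, 132 and 153 CPM in MC-F7 and at 128, 129.7 and 106 CPM in MT-F7. The highest MT-F7 value lay just below the lowest MC-F7 value. The log2 fold change was -0.33 (95% interval -0.67 to 0.013, adjusted p = 0.15 by edgeR). In the deposited TPM, where library size is kept, the groups overlapped at 23.2, 18.9 and 19.5 in MC-F7 against 19.2, 20.0 and 14.9 in MT-F7.

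**Figure D2:**
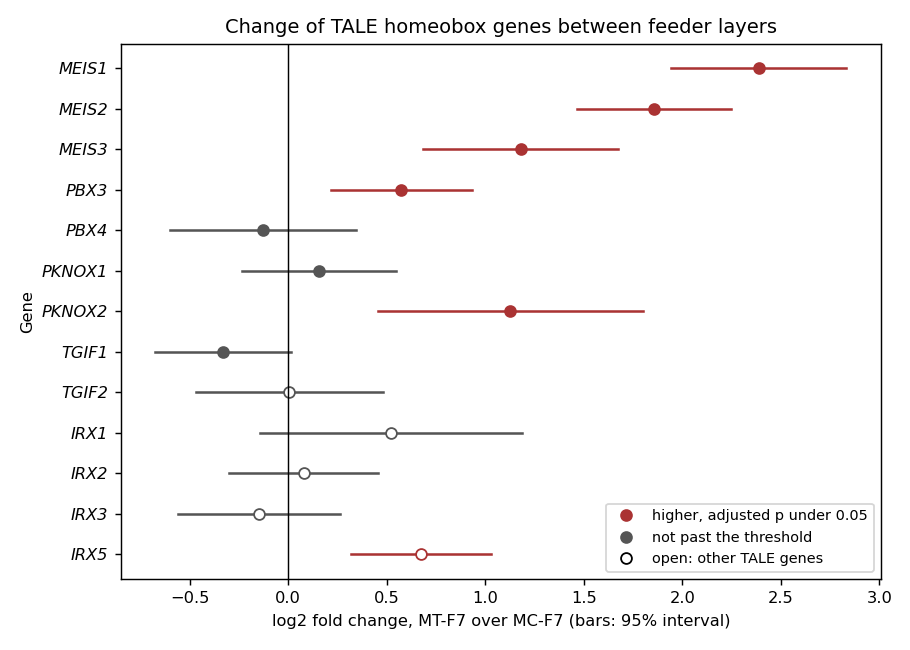
Log2 fold change of MT-F7 over MC-F7 from edgeR for the 8 measured members (filled points) and 5 other TALE genes with enough counts (open points), with 95% intervals, where red marks an adjusted p under 0.05. The MEIS genes stand at 1.18 to 2.39, and IRX5 is the open point in red, at 0.67.

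Levels of different genes were compared per length, from the deposited TPM. These values summed to only 154763 (MC-F7 replicate 3) to 164394 (MT-F7 replicate 2) per library, which is below the standard TPM scale. They serve to compare genes and libraries here and cannot be read against cutoffs used for standard TPM. TGIF1 was the most abundant member in both groups, at 20.6 ± 2.33 TPM in MC-F7 and 18.0 ± 2.78 TPM in MT-F7, and MEIS3 was next in both, at 1.48 ± 0.346 and 3.68 ± 0.852 TPM. In MC-F7 the order below them was PKNOX1, PBX3, PBX4, MEIS2, MEIS1 and PKNOX2, from 1.03 ± 0.131 TPM for PKNOX1 to 0.141 ± 0.0200 TPM for PKNOX2. The ranges of neighbours from PKNOX1 to MEIS2 overlapped, and MEIS1 stood apart below them at 0.299 ± 0.0704 TPM.

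In MT-F7 the order became TGIF1, MEIS3, MEIS2, MEIS1, PBX3, PKNOX1, PBX4 and PKNOX2. MEIS2 stood at 2.36 ± 0.274 TPM, MEIS1 at 1.71 ± 0.384 TPM and PBX3 at 1.41 ± 0.130 TPM. The ranges of neighbours from MEIS2 to PKNOX1 overlapped, although each was above the next in all 3 libraries. MEIS1 and MEIS2 were below PBX3 in all MC-F7 libraries and above it in all MT-F7 libraries.

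Summed over MEIS1, MEIS2 and MEIS3, the level was 2.25, 2.25 and 2.63 TPM in MC-F7 against 7.06, 8.09 and 8.11 TPM in MT-F7, which is 3.27 times as high. The sum of PBX3 and PBX4 was 1.56 ± 0.0959 TPM in MC-F7 and 2.11 ± 0.118 TPM in MT-F7, and that of PKNOX1 and PKNOX2 was 1.17 ± 0.150 and 1.59 ± 0.147 TPM. All 3 sums were higher in every MT-F7 library than in any MC-F7 library, and each exact permutation test gave p = 0.1, the smallest it can give. PBX2 is outside these sums. The deposited TPM keep library size, and every MT-F7 library held more counted reads than any MC-F7 library. With each library rescaled to 1000000, the log2 ratio of MT-F7 over MC-F7 was 1.66 for the MEIS sum, against 1.71 as deposited. It was 0.38 against 0.44 for the PBX sum and 0.40 against 0.44 for the PKNOX sum.

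A ratio within a library does not depend on how libraries are scaled. The ratio of the MEIS sum to the sum of PBX3 and PBX4 was 1.53, 1.44 and 1.59 in MC-F7 against 3.18, 3.80 and 4.08 in MT-F7. The ratio of the MEIS sum to the PKNOX sum was 1.77, 1.80 and 2.63 in MC-F7 against 4.55, 4.60 and 5.50 in MT-F7. Both ratios were higher in every MT-F7 library (exact permutation p = 0.1 for each), whereas the ratio of PBX3 and PBX4 to PKNOX overlapped, at 1.35 ± 0.268 and 1.33 ± 0.111 (exact permutation p = 1). TGIF1 was at 8.74 ± 1.48 times the MEIS sum in MC-F7 and 2.34 ± 0.456 times in MT-F7, also without overlap.

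**Figure D3:**
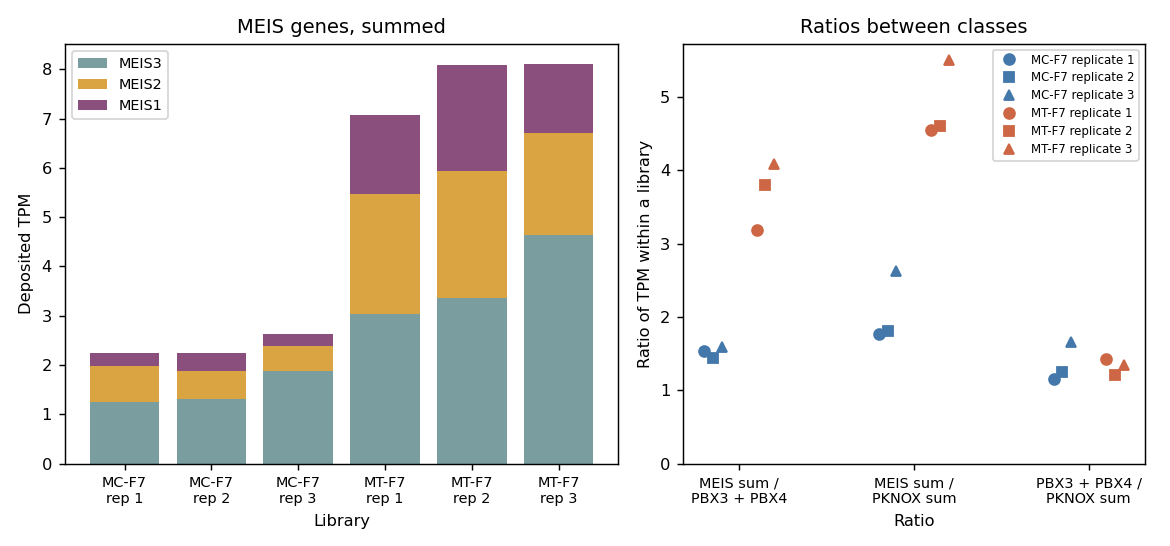
Left, deposited TPM of MEIS1, MEIS2 and MEIS3 stacked for each library, on an axis from 0; right, ratios of summed TPM within each library, 1 point per library. The MEIS sum is 2.25 to 2.63 TPM in MC-F7 and 7.06 to 8.11 TPM in MT-F7, and the groups overlap in the PBX to PKNOX ratio.

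Within the MEIS sum, the share of MEIS1 did not overlap between the groups. MEIS1 made up 12.2, 16.8 and 9.27% of it in MC-F7 against 22.5, 26.5 and 17.3% in MT-F7, and its lowest share in MT-F7 was just above its highest share in MC-F7. The share of MEIS3 was 61.9 ± 8.41% in MC-F7 and 47.2 ± 8.73% in MT-F7 and overlapped, with replicate 3 the highest in both groups. The ratio of MEIS1 to MEIS3 was 0.212 ± 0.0797 in MC-F7 and 0.488 ± 0.171 in MT-F7 without overlap (exact permutation p = 0.1). The ratio of MEIS1 to MEIS2 overlapped, at 0.513 ± 0.149 and 0.720 ± 0.0929 (exact permutation p = 0.2), so the changes of MEIS1 and MEIS2 were not separated by these libraries.

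Of 8 other TALE genes, 5 were tested, 1 was higher in MT-F7 and 0 lower (0 lower also at an unadjusted p under 0.05 and by DESeq2), with a median log2 fold change of 0.080. Among all tested genes, 11.9% were higher and 11.3% lower. TGIF2, the paralog of TGIF1, was at 8.83 ± 1.88 and 8.87 ± 1.75 CPM. Of the IRX genes, which pattern the neural plate, IRX5 rose from 33.1 ± 2.38 to 52.8 ± 8.55 CPM (log2 fold change 0.67, adjusted p = 0.0098 by edgeR), and IRX1, IRX2 and IRX3 did not pass, with log2 fold changes of 0.52, 0.080 and -0.15. IRX5 did not pass without MC-F7 replicate 2 or MT-F7 replicate 1, nor in 3 of 4 limma fits on TPM. MKX, IRX4 and IRX6 had too few counts to be tested.

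HOX proteins bind DNA with PBX and MEIS, and their genes were close to the limit of detection. Of 39 HOX genes, 37 were in the count table and 3 passed the filter on low counts. Summed over the 37 genes, the MC-F7 libraries held 146, 210 and 196 counts and the MT-F7 libraries 33, 15 and 13, which is 8.11 ± 1.45 and 0.815 ± 0.433 CPM. The HOX sum was thus higher in every MC-F7 library, opposite to the MEIS sum, and 26 of the 37 genes had 0 counts in all 3 MT-F7 libraries. A count of 0 allows up to 3 counts, or 0.116 to 0.140 TMM-normalized CPM per library, and such limits cover counting error only.

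The 3 tested HOX genes are named here although their mean is under 1 CPM, a choice made after their values were seen. The counts of HOXC6 were 29, 35 and 29 in MC-F7 against 0, 0 and 0 in MT-F7, so that its level was at least 11.3-fold lower against a floor of 3 counts per library (adjusted p = 1.5e-04 by edgeR). HOXC9 had 42, 37 and 22 counts against 0, 0 and 0, at least 12.2-fold lower (adjusted p = 1.7e-04 by edgeR). HOXC4, with 5, 23 and 21 counts in MC-F7 and overlapping counts of 19, 10 and 8 in MT-F7, did not pass (adjusted p = 0.56 by edgeR). These are 2 lower and 0 higher genes, with 0 higher also at an unadjusted p under 0.05. HOXC6 and HOXC9 passed the filter on low counts only through MC-F7, where they were high. Their p values and this tally therefore only describe the genes that passed and are no support for a direction. The fold limits take the MC-F7 mean as exact. With all genes of at least 1 count tested, edgeR called 9 HOX genes lower and 0 higher, and DESeq2 gave the same numbers.

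By paralog group, HOX genes 1 to 4 were at 1.68 ± 0.855 CPM in MC-F7 and 0.574 ± 0.366 CPM in MT-F7, HOX genes 5 to 8 at 3.26 ± 0.938 and 0.131 ± 0.113 CPM, and HOX genes 9 to 13 at 3.17 ± 0.477 and 0.111 ± 0.106 CPM. The genes of paralog groups 5 to 13 therefore held most of the HOX counts of MC-F7. The part of feeder fibroblasts in these HOX counts was not tested.

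**Figure D4:**
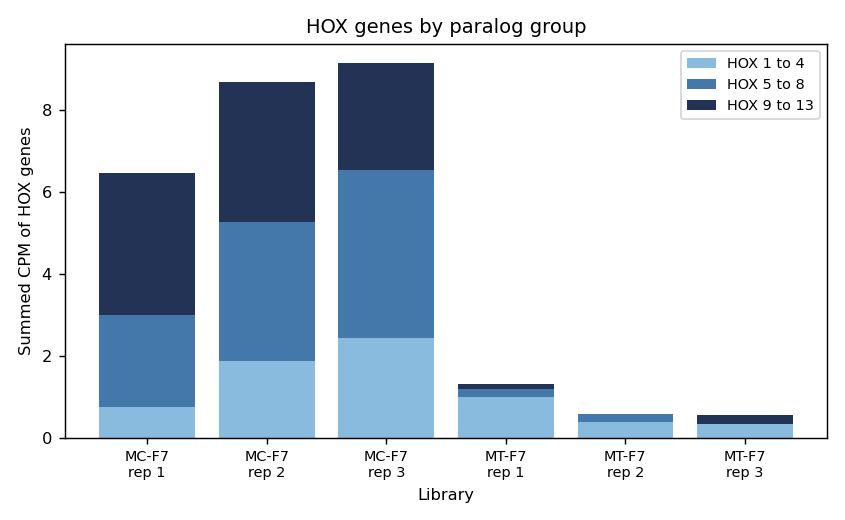
Summed TMM-normalized CPM of 37 HOX genes in each library, stacked by paralog group, on an axis from 0. The MC-F7 bars reach 6.46 to 9.17 CPM and the MT-F7 bars 0.552 to 1.31 CPM.

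Of the 13 fibroblast markers, all tested, 4 were higher in MT-F7 (COL3A1, POSTN, FBN1 and PDGFRB), 1 was lower (TWIST2), 8 did not pass and none was at 0 in all libraries, with a median log2 fold change of 0.36. Their summed level was 231 to 309.6 CPM in MC-F7 and 358 to 409.9 CPM in MT-F7. Most of it was COL1A1, named here after its values were seen, which did not pass (205 ± 31.4 and 268 ± 15.6 CPM, adjusted p = 0.094 by edgeR). COL3A1, a fibrillar collagen, went from 14.6 ± 1.99 to 45.8 ± 10.3 CPM (log2 fold change 1.65, adjusted p = 8.1e-05 by edgeR). TWIST2, a mesenchymal factor, fell from 1.81 ± 0.312 to 0.406 ± 0.291 CPM (log2 fold change -2.15, adjusted p = 0.011 by edgeR). TWIST2 passed the filter on low counts only through MC-F7, so its call is a description only. PDGFRB did not pass without MC-F7 replicate 1, MC-F7 replicate 2 or MT-F7 replicate 3, nor POSTN without MT-F7 replicate 2, and limma on TPM called 1 or 2 of the markers higher and 0 or 1 lower. The part of such cells in the MEIS levels was not tested.

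Of 9 tested anterior neural markers, 6 were higher in MT-F7 and 0 lower (0 lower also at an unadjusted p under 0.05 and by DESeq2), and their summed level was 590.4 to 658 CPM in MC-F7 and 1437 to 1546 CPM in MT-F7, with none at 0. The eye field and forebrain factors SIX6, LHX2, RAX and PAX6 had log2 fold changes of 3.53, 3.23, 2.98 and 2.92. The part of such cells in the MEIS levels was not tested.

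Retinoic acid is a known inducer of MEIS genes, and the genes that make, carry, sense and degrade it moved in both directions. Of 15 tested, 5 were higher and 2 lower in MT-F7, with a median log2 fold change of -0.011, where 11.9% of all tested genes were higher and 11.3% lower. CRABP1, which binds retinoic acid in the cytoplasm, went from 152 ± 39.9 to 1521 ± 208 CPM, a log2 fold change of 3.32 (adjusted p = 8.3e-07 by edgeR). CYP26A1, which degrades retinoic acid, went from 13.7 ± 2.21 to 86.1 ± 12.6 CPM (2.65, adjusted p = 1.1e-06), and the related enzyme CYP26C1 from 0.430 ± 0.327 to 2.49 ± 0.627 CPM (2.52, adjusted p = 0.0030). ALDH1A3, which makes it, rose from 14, 2 and 0 counts to 70, 61 and 88 counts (3.63, adjusted p = 0.0020). In the other direction, DHRS3, which turns retinal back to retinol, fell from 52.9 ± 2.69 to 13.3 ± 1.32 CPM (-1.99, adjusted p = 3.4e-06), and CYP26B1, another degrading enzyme, fell from 1.58 ± 0.294 to 0.519 ± 0.298 CPM (-1.61, adjusted p = 0.024). CYP26B1 did not pass without MC-F7 replicate 2, MC-F7 replicate 3, MT-F7 replicate 1 or MT-F7 replicate 2. ALDH1A3 and CYP26C1 passed the filter on low counts only through MT-F7, where they were high, so their calls are a description only. Without replicate 3 of both groups 5 retinoid genes were higher and 5 lower. With at least 10 counts required in every library 2 were higher and 1 lower, and ALDH1A3, CYP26C1 and CYP26B1 were not tested.

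TGIF1 works with SMAD proteins and corepressors. Of 9 such partners, 1 was higher, 1 lower and 7 did not pass, with a median log2 fold change of 0.12. That is near the shares over all tested genes, 11.9% higher and 11.3% lower. SMAD2, a transducer of activin and nodal signals, rose from 24.5 ± 2.34 to 38.4 ± 3.75 CPM (log2 fold change 0.64, adjusted p = 0.0099 by edgeR). SMAD2 did not pass without MC-F7 replicate 2 or MT-F7 replicate 1, nor with limma on log2(TPM + 1) or on rescaled TPM. SKIL, a SMAD corepressor, went from 10.8 ± 0.552 to 7.40 ± 0.886 CPM (log2 fold change -0.54) at the edge of the threshold and did not pass with RLE or library size scaling, nor in any fit that left out 1 library. The corepressors CTBP1, CTBP2, SIN3A and HDAC1 and the factors SMAD3, SMAD4 and SKI did not pass in the reported fit. CTBP1 was called higher with limma on log2(TPM + 1), on log2(TPM + 0.1) and on rescaled TPM. SKI was called higher with limma at a mean TPM of at least 1, with a replicate block and without replicate 3 of both groups.

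Of the PBX and MEIS regulators PBXIP1, CRBN, DDB1 and CUL4A, edgeR called 0, 1 had an unadjusted p under 0.05 and DESeq2 called 1. PBXIP1, which binds PBX proteins, was at 59.0 ± 6.92 CPM in MC-F7 and 82.8 ± 15.9 CPM in MT-F7 (log2 fold change 0.49, adjusted p = 0.056 by edgeR). CRBN, DDB1 and CUL4A, parts of a ubiquitin ligase that acts on MEIS2, had log2 fold changes of 0.18, -0.0091 and 0.23.

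Of 10 genes known as targets of MEIS, PBX or PKNOX in other tissues, 4 had enough counts. PAX6, an eye and forebrain factor, rose from 2.63 ± 0.259 to 19.9 ± 0.591 CPM (log2 fold change 2.92, adjusted p = 7.7e-07 by edgeR). NANOG, a pluripotency factor, fell from 43.5 ± 9.03 to 10.7 ± 1.23 CPM (-2.02, adjusted p = 1.1e-05). HIF1A and EPHA8 did not pass, with log2 fold changes of -0.11 and -1.12. Of the 6 genes too low to test, the neuronal genes DCX and TH had 0 counts in all MC-F7 libraries, and in MT-F7 DCX had 6, 4 and 6 counts and TH 3, 8 and 2. The anterior HOX genes HOXA3 and HOXB1 had 0 in all 6 libraries.

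The genes most like MEIS1 over the 6 libraries, by the mean absolute difference of centred log2(CPM + 0.5) among 11930 genes, were MAP2, GJA1, SLC2A10, DMD and TEK, at 0.0947 to 0.133. MAP2, a neuronal microtubule protein, was at 9.37 ± 2.25 CPM in MC-F7 and 41.2 ± 8.09 CPM in MT-F7, and GJA1, a gap junction protein, at 16.8 ± 3.22 and 77.6 ± 7.83 CPM. The genes most like MEIS2 were MYL4, DAB2, SCG5, LHX5 and TOX2, at 0.0708 to 0.0895. LHX5, a forebrain factor, was at 40.5 ± 3.81 CPM in MC-F7 and 134 ± 4.42 CPM in MT-F7. All of these were chosen for their likeness to MEIS1 or MEIS2, so their difference between the groups is a description only.

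**Figure D5:**
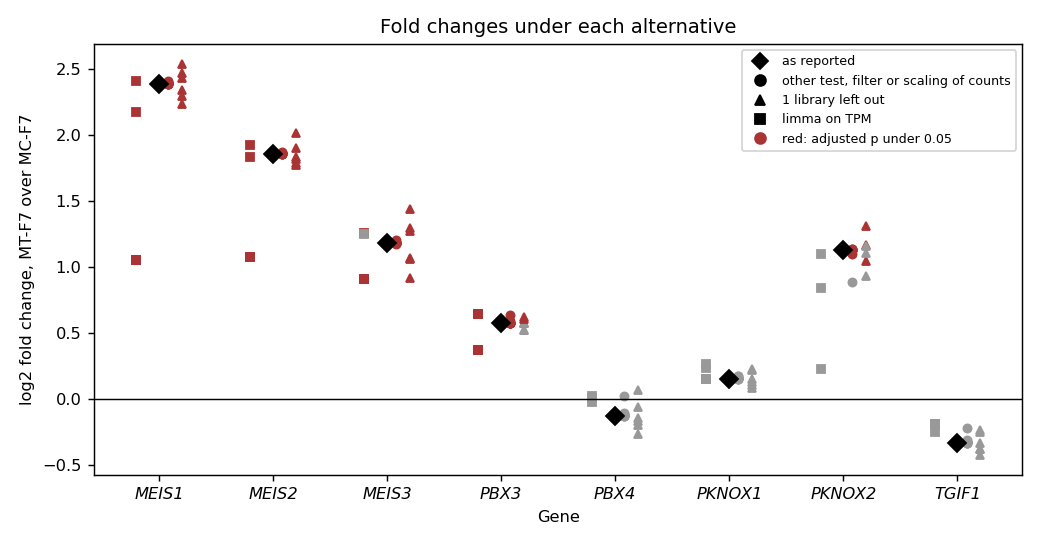
Log2 fold change of each measured member under every alternative fit, with 1 point per fit. MEIS1, MEIS2, MEIS3, PBX3 and PKNOX2 lie above 0 in every fit, and PBX4 lies on both sides of 0, from -0.27 to 0.067.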

How the data were processed

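RNA of MC-F7 and MT-F7 was sequenced in 3 libraries each. The authors aligned reads with HISAT2 2.0.5 and counted them per gene with featureCounts 1.5.0-p3; the genome build is not given in the sources used here. The deposited count table holds raw counts of 19163 genes, and the deposited TPM table holds TPM that keep library size, since each member had 1 fixed ratio of TPM to count across libraries. Those TPM summed to 154763 to 164394 per library, so TPM cutoffs and pseudocounts are on that scale except in the rescaled fit. Samples were grouped by the deposited labels. Genes were filtered with edgeR's filterByExpr (at least 10 counts, 15 in total), TMM-normalized and tested with edgeR 4.0.16 (R 4.3.3) over 13001 genes, MT-F7 against MC-F7, with Benjamini-Hochberg adjustment. Standard errors came from the F statistic. Sums and ratios of TPM were compared with two-sided exact permutation tests of log values. Libraries of a group differed by more than sampling noise. Alternatives used DESeq2 1.42.0, limma 3.58.1 on log2(TPM + a pseudocount of 1 or 0.1), other scalings and filters, and left-out libraries; fold changes on a log2(TPM + pseudocount) scale understate changes of low genes. The scripts were tested on simulated data. The members and gene lists (other TALE, HOX, retinoid, TGIF partners, regulators, known targets, and pluripotency, fibroblast, anterior neural and neural crest markers) were chosen with earlier results of these data known. All members were named. From lists of up to 10 genes any gene could be named, and from the HOX, retinoid and marker lists at most 4 per direction past the threshold, by size of change, with a mean of at least 1 CPM. For MEIS1 and MEIS2 the 5 genes of most similar pattern were named. Not every gene of the class is reported here. Gene spans of the RefSeq table (ARS-UCD2.0) served only to find genes that overlap members. Sequences were not used here.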

Additional observations from a re-analysis of the deposited data

How the results depend on the processing

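MEIS1 and MEIS2 passed in all 19 alternatives, MEIS3 in 18 of 19, PBX3 in 16 of 19 and PKNOX2 in 11 of 18, and PBX4, PKNOX1 and TGIF1 passed in none. Among these, the limma fits on TPM that was not rescaled kept library size. Every MT-F7 library held more counted reads than any MC-F7 library, so such fits lean toward higher values in MT-F7. The number of members past the threshold was 5 in the reported fit, 3 with limma on TPM rescaled to 1000000 per library and 4 without replicate 3 of both groups (both chosen after seeing the data), and 3 to 5 when single libraries were left out, with 3 without MC-F7 replicate 2 and without MT-F7 replicate 2. The sign of PBX4 turned with limma on log2(TPM + 1) (0.0065), with limma on log2(TPM + 0.1) (0.021), without replicate 3 of both groups (0.025) and without MC-F7 replicate 3 (0.067, in a range of -0.27 to 0.067 over the left-out libraries); the cause was not tested. Over all genes, 3016 passed in the reported fit and 1710, 1693, 1399 and 1567 with limma on log2(TPM + 1), log2(TPM + 0.1), mean TPM of at least 1 and rescaled TPM; 51.5% of the calls were higher in the reported fit and 64.6%, 64.9%, 67.8% and 58.3% in these. Without replicate 3 of both groups 4242 passed. Leaving out single libraries gave 1914 (MC-F7 replicate 2) to 3093 genes. Adding a replicate block gave 4674 genes, among them the same 5 members, and 5 retinoid genes higher and 5 lower. The labels do not say whether a replicate number marks libraries made together, and the values do not settle it. Same-numbered libraries had deviations correlated at 0.167, 0.0707 and 0.505 over genes. The 0.505 of replicate 3 was the highest of all pairs, whereas MC-F7 replicate 1 correlated best with MT-F7 replicate 2 (0.368). The MEIS, PBX and PKNOX sums of TPM and the ratios of the MEIS sum to the PBX and PKNOX sums kept their direction with rescaled TPM (sums) and without each library in turn; the other ratios and shares were not recomputed. Levels per length came only from the deposited TPM, and no other length correction was run. PKNOX2, at 28 to 94 counts, and the HOX genes, at up to 42 counts, are limited by depth.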

Other observations

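Markers of neural crest, a cell type in which MEIS and PBX genes are also active, did not move together. Of 6 tested, 1 was higher and 1 lower in MT-F7, where 11.9% of all tested genes were higher and 11.3% lower. PAX3, a neural crest and dorsal neural tube factor, rose from 7, 9 and 0 counts to 47, 94 and 74 counts (log2 fold change 3.60, adjusted p = 9.2e-04 by edgeR). PAX3 passed the filter on low counts only through MT-F7, where it was high, so its call is a description only. FOXD3, which is used both in neural crest and in pluripotent cells, fell from 6.58 ± 0.494 to 1.16 ± 0.358 CPM (-2.49, adjusted p = 5.0e-05). The summed level of the 7 markers counted was lowest at 10.5 CPM in MC-F7 and highest at 10.9 CPM in MT-F7, so the groups overlapped.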
